A study of Homo sapiens with 7 samples.

Results

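The genes described here handle zinc in human cells. They are 7 metallothionein genes (MT2A, MT1X, MT1E, MT1F, MT1G, MT1H and MT1M), the zinc exporter gene SLC30A1 and MTF1, the gene of a metal-sensing transcription factor. All probe sets that the platform annotation assigns to these 9 genes were taken, which gave 17 of the 54675 probe sets on the array, 11 of them for metallothioneins. No probe set in the annotation names a member together with another gene.

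Metallothioneins are small proteins rich in cysteine that bind zinc and copper ions in the cytosol. SLC30A1 sits in the plasma membrane and carries zinc out of the cell. MTF1 is a zinc finger protein that binds metal response elements in DNA when free zinc is high, and it drives the transcription of metallothionein genes and of SLC30A1. In RefSeq (GRCh38.p14) all 7 metallothionein members lie on chromosome 16, where for example MT1E is followed by MT1M and MT1G by MT1H, while SLC30A1 and MTF1 lie on chromosome 1.

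The cells were HT1080, a fibrosarcoma line in long use, with 1 culture on each of 7 arrays. Single compounds were present in 4 cultures for 2 h: catechin (11.25 ng/ml), epicatechin and taxifolin (6.25 ng/ml both) and resveratrol (2195 ng/ml). Another received 5% serum labelled pycnogenol-positive (pine bark extract, here pycnogenol serum) and another 5% control serum, also for 2 h, and the last was untreated. The labels give fetal bovine serum as part of the maintenance medium of all cultures, but not whether the medium renewed before treatment held it, and they name no vehicle for the untreated one. With 1 array per group no replicate error, p-value or interval of a difference could be had, and every difference below describes 2 arrays.

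Values are MAS5 signals in arbitrary units as deposited, and no detection calls were at hand. For differences a floor was set at 34.9, the 25th percentile, and log2 values were taken, and 27307 probe sets with a mean at or above a signal of 110 passed a filter on low signal. Of the members, 14 of 17 probe sets and 8 of 9 genes passed, with MT1M below it. The median signal of an array ran from 114 to 136. The 2 serum arrays stood apart from the other 5: both lay outside the range of the 5 for 23.6% of the probe sets above the filter. Of 8 mesenchymal markers 6 passed the filter, with vimentin (VIM) at 46701 to 50229 and CD44 at 36992 to 41985, while THY1 read 145 or less and NT5E and COL1A2 lay below it. Of 5 epithelial markers the keratins KRT18, at 17292 to 19292, and KRT8, at 3521 to 3943, passed, and CDH1, EPCAM and KRT19 did not. The summed signal was 116312 to 126251 for the mesenchymal list and 20956 to 23259 for the epithelial one.

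MTF1 recognises a short DNA core, and the promoters of MT2A, MT1H and SLC30A1 are shown because MT2A was among the most even of the members across arrays, MT1H was the metallothionein gene above the filter that differed most between the serum arrays, and SLC30A1 was highest with pycnogenol serum. The sequences are the 250 bases before the RefSeq gene start in GRCh38.p14, 5′ to 3′ along the gene. Capitals mark matches to the cores TGCACNC and TGCGCNC on either strand, none of which overlap.
MT2A: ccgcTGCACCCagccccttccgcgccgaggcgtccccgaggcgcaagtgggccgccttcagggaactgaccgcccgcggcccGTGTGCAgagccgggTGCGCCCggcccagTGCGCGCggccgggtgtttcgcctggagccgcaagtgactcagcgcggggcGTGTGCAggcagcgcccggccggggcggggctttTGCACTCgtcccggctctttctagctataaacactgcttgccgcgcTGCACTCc
MT1H: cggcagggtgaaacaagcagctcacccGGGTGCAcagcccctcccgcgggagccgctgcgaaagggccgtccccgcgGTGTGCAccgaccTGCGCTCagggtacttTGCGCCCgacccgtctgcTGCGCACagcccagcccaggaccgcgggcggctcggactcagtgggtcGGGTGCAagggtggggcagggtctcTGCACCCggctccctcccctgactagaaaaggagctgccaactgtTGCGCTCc
SLC30A1: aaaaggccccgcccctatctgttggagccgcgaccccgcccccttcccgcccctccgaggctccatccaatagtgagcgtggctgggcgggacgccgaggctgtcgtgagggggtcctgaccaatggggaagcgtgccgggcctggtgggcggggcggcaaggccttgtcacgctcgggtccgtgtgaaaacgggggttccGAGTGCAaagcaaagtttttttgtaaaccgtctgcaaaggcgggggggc
MT2A covers chr16.0:56608334-56608583 and MT1H chr16.0:56669564-56669813 on the plus strand, and SLC30A1 chr1.0:211579162-211579411 on the minus strand.

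The metallothionein promoters held several core matches each and those of SLC30A1 and MTF1 few or none. MT2A had 7 matches, MT1H 8 and MT1X 4, against 1 in SLC30A1 and 0 in MTF1. Among the 35116 promoters of the table, 24.8% held at least 1 match in the same window, 0.37% at least 4 and 0.0313% at least 7. A match describes the letters and is no proof of a bound site, and a window without one says nothing about MTF1. Promoters of MT1E, MT1F, MT1G and MT1M were not analysed here.

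**Figure D1:**
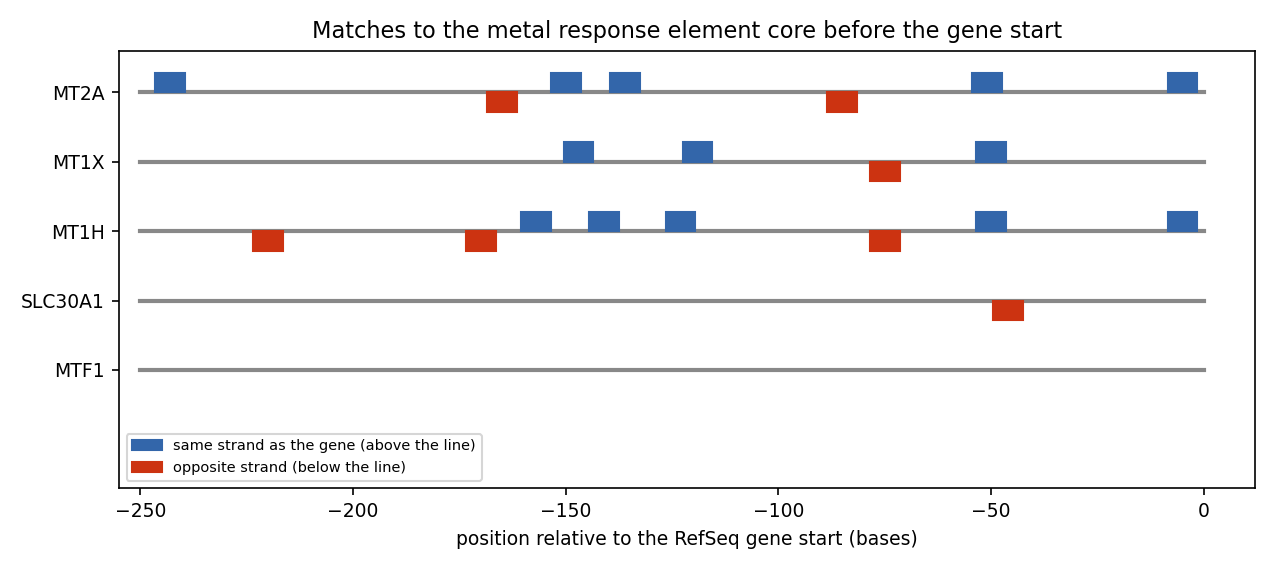
Matches to the metal response element core in the 250 bases before the gene start of 5 members (x axis, bases relative to the start). Blocks above a line are on the gene's strand and blocks below it on the opposite strand. MT2A has 7 matches, MT1X 4, MT1H 8, SLC30A1 1 and MTF1 0.

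The 6 metallothionein genes above the filter had high signals in every culture, and none of these 6 differed by 2-fold. MT2A, the most widely expressed human metallothionein, read 56880 with catechin, 57003 with epicatechin, 59844 with taxifolin, 54763 with resveratrol, 58204 with pycnogenol serum, 56070 with control serum and 55342 in the untreated culture. The highest of these was 1.09 times the lowest, and the serum arrays lay among the others. MT2A came to between 75.7% and 82.7% of the brightest probe set of its array, near the upper end of the signal scale. Whether the scale is compressed there was not tested.

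MT1X, a metal-binding protein of the same family, had 2 probe sets. On 208581_x_at it read 45288 with catechin, 46719 with epicatechin, 47234 with taxifolin, 47367 with resveratrol, 47474 with pycnogenol serum, 44580 with control serum and 45985 untreated, a spread of 1.06-fold. Its other probe set, 204326_x_at, read 31116, 30116, 32474 and 29868 with catechin, epicatechin, taxifolin and resveratrol in that order, 27289 with pycnogenol serum, 27421 with control serum and 25107 untreated. On that probe set all 4 compounds lay above both serum arrays and the untreated array was lowest. The accession listed for 204326_x_at belongs to MT1L, a transcribed pseudogene of the cluster, so its reading of MT1X is uncertain.

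MT1E varied little on both of its probe sets. The brighter, 212859_x_at, reached 37811 with taxifolin, against 33513 untreated, and 216336_x_at reached 27612 with epicatechin, against 23733 untreated. The untreated array was lowest on both, but the highest array was not the same. MT1F had probe sets of unlike brightness: 217165_x_at reached 21375 with epicatechin, against 18835 untreated as its lowest value, while 213629_x_at read 3045 with pycnogenol serum, 3981 with control serum and 2923 untreated, with 2760 with taxifolin as its lowest value.

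Among the metallothionein genes above the filter, MT1G and MT1H varied most on the probe sets read for them. MT1G, on 204745_x_at, read 15766 with catechin, 14369 with epicatechin, 17518 with taxifolin, 12361 with resveratrol, 14594 with pycnogenol serum, 13088 with control serum and 12479 untreated. Taxifolin was highest, 0.49 (log2) above the untreated array, and resveratrol lay at -0.014 from it. MT1H, on 206461_x_at, read 29176 with catechin, 38071 with epicatechin, 29931 with taxifolin, 29801 with resveratrol, 27092 with pycnogenol serum, 37964 with control serum and 36012 untreated. Its 7 values lay in a lower group of 4 arrays up to 29931 and a higher group of 3 from 36012, and neither the serum arrays nor the compounds fell on one side.

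Probe sets of one metallothionein gene did not follow each other closely, and all 9 metallothionein probe sets above the filter carry the suffix _x_at, which marks probes that can match further transcripts. Pearson's r over the 7 arrays, which share all their processing, was 0.25 for the MT1X pair, 0.16 for the MT1E pair and 0.22 for the MT1F pair. It was 0.77 for the SLC30A1 pair, where pycnogenol serum was highest on both probe sets, and r without that array was not computed. Among the remaining arrays catechin was lowest on 212907_at, at 7705, and highest on 228181_at, at 1839. The SLC30A1 value is therefore no measure of how closely 2 probe sets of a gene agree in general. Over the 36 pairs of metallothionein probe sets it ran from -0.65 to 0.93 with a median of 0.22. How much of each signal comes from a neighbouring metallothionein was not tested, so single gene names in this family are uncertain.

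MT1M and 2 further probe sets stayed low. MT1M, whose role is metal binding as for the other family members, read 11.0 with catechin, 49.9 with epicatechin, 72.0 with taxifolin, 49.9 with resveratrol, 20.1 with pycnogenol serum, 77.0 with control serum and 44.7 untreated, all under the filter. The MT1G probe set 210472_at read 32.1 or less and the SLC30A1 probe set 242716_at 32.6 or less, under the floor on all arrays. These 3 are the members' probe sets below the filter, and no level or difference is drawn from them.

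**Figure D2:**
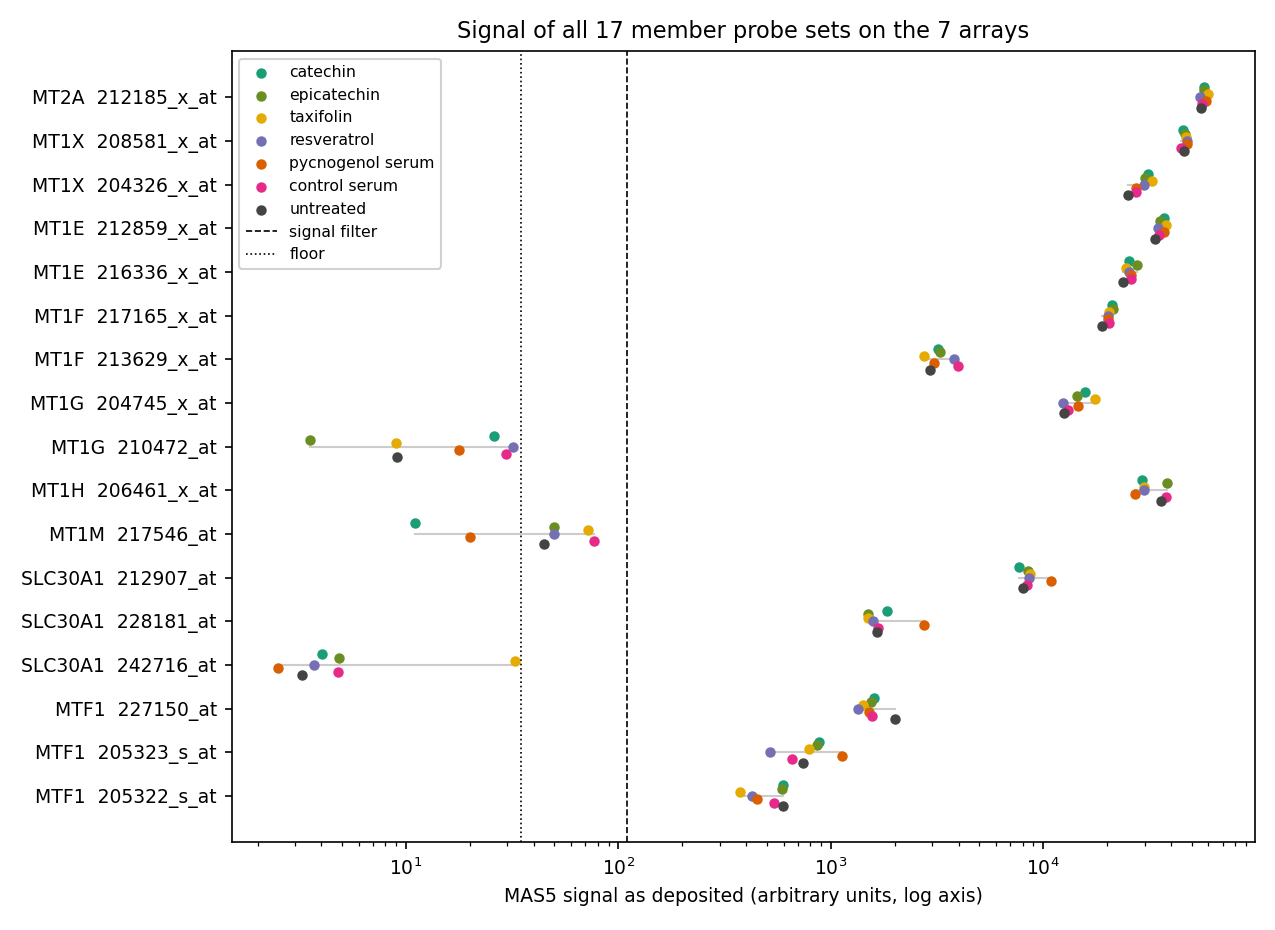
Deposited MAS5 signal (x axis, log scale) of all 17 member probe sets (rows) on the 7 arrays (coloured points). Grey lines span lowest to highest. The dashed line marks the filter at 110 and the dotted line the floor at 34.9. The metallothionein probe sets above the filter lie between 2760 and 59844.

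SLC30A1 was higher with pycnogenol serum than on any other array, on both probe sets above the filter. On 212907_at it read 7705 with catechin, 8442 with epicatechin, 8664 with taxifolin, 8604 with resveratrol, 10937 with pycnogenol serum, 8416 with control serum and 8059 untreated. The 6 arrays other than pycnogenol serum lay close together, between 7705 and 8664. On 228181_at it read 1839 with catechin, 1503 with epicatechin, 1504 with taxifolin, 1575 with resveratrol, 2745 with pycnogenol serum, 1661 with control serum and 1645 untreated. Here too the pycnogenol serum array stood alone above the rest.

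The difference of pycnogenol serum from control serum was 0.38 (log2) for SLC30A1 on 212907_at and 0.73 on 228181_at. From the untreated array it was 0.44 and 0.74, comparisons that share the pycnogenol serum array. Control serum itself differed from the untreated array by 0.063 and 0.013. Both probe sets stayed short of 2-fold. Against control serum, the central 95% of differences among probe sets of like brightness ran from -0.45 to 0.41 for the first and from -0.57 to 0.55 for the second, so the first lay inside its range and the second outside. Under quantile normalization, centring and pairwise loess, 212907_at gave 0.37, 0.32 and 0.37, and 228181_at 0.72, 0.67 and 0.73.

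A blood cell marker list, like SLC30A1, was highest with pycnogenol serum. The summed signal of the 5 markers read by a probe set of their own was 533 with catechin, 566 with epicatechin, 561 with taxifolin, 675 with resveratrol, 757 with pycnogenol serum, 630 with control serum and 532 untreated, so resveratrol lay above control serum. Much of it was the hemoglobin gene HBB, at 413 with resveratrol, 522 with pycnogenol serum, 382 with control serum and 227 untreated. With pycnogenol serum, control serum and no treatment, in that order, PTPRC, the common leukocyte antigen, was at 37.7, 37.9 and 79.7. In the same order CD3E read 189, 134 and 123, LYZ 4.83, 6.89 and 77.4, and PPBP 2.70, 69.8 and 24.7. The members of this list thus differed in direction. HBB was the single list member above the filter. The endothelial list, with a sum of 230 to 342, was also highest with pycnogenol serum, but its members differed in direction. PECAM1, the 1 endothelial marker above the filter, read 160 with pycnogenol serum, 217 with control serum and 173 untreated, while VWF, below the filter, read 150, 19.7 and 22.0 in that order. The part of these markers in the SLC30A1 difference was not tested.

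MTF1 gave no common pattern over its 3 probe sets, with r of 0.21, 0.70 and 0.13 for its 3 pairs. On 227150_at it read 1604 with catechin, 1540 with epicatechin, 1416 with taxifolin, 1337 with resveratrol, 1517 with pycnogenol serum, 1565 with control serum and 2005 untreated. The untreated array was the highest and the other 6 lay together below it, from -0.58 with resveratrol to -0.32 with catechin. On 205323_s_at MTF1 read 876, 861, 793 and 519 with catechin, epicatechin, taxifolin and resveratrol, 1130 with pycnogenol serum, 655 with control serum and 741 untreated. There 2 arrays, resveratrol and control serum, lay below the untreated one and pycnogenol serum was highest, at 0.79 from control serum.

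The remaining MTF1 probe set, 205322_s_at, read 598 with catechin, 590 with epicatechin, 376 with taxifolin, 428 with resveratrol, 450 with pycnogenol serum, 542 with control serum and 593 untreated. Taxifolin lay at -0.66 and pycnogenol serum at -0.27 from their references, untreated and control serum. For pycnogenol serum against control serum the 3 probe sets thus gave -0.045, 0.79 and -0.27, with different signs. Resveratrol was the only comparison with a control in which all 3 MTF1 probe sets were lower by more than 0.4, at -0.58, -0.51 and -0.47, and all 3 lay inside the central 95% of probe sets of like brightness.

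**Figure D3:**
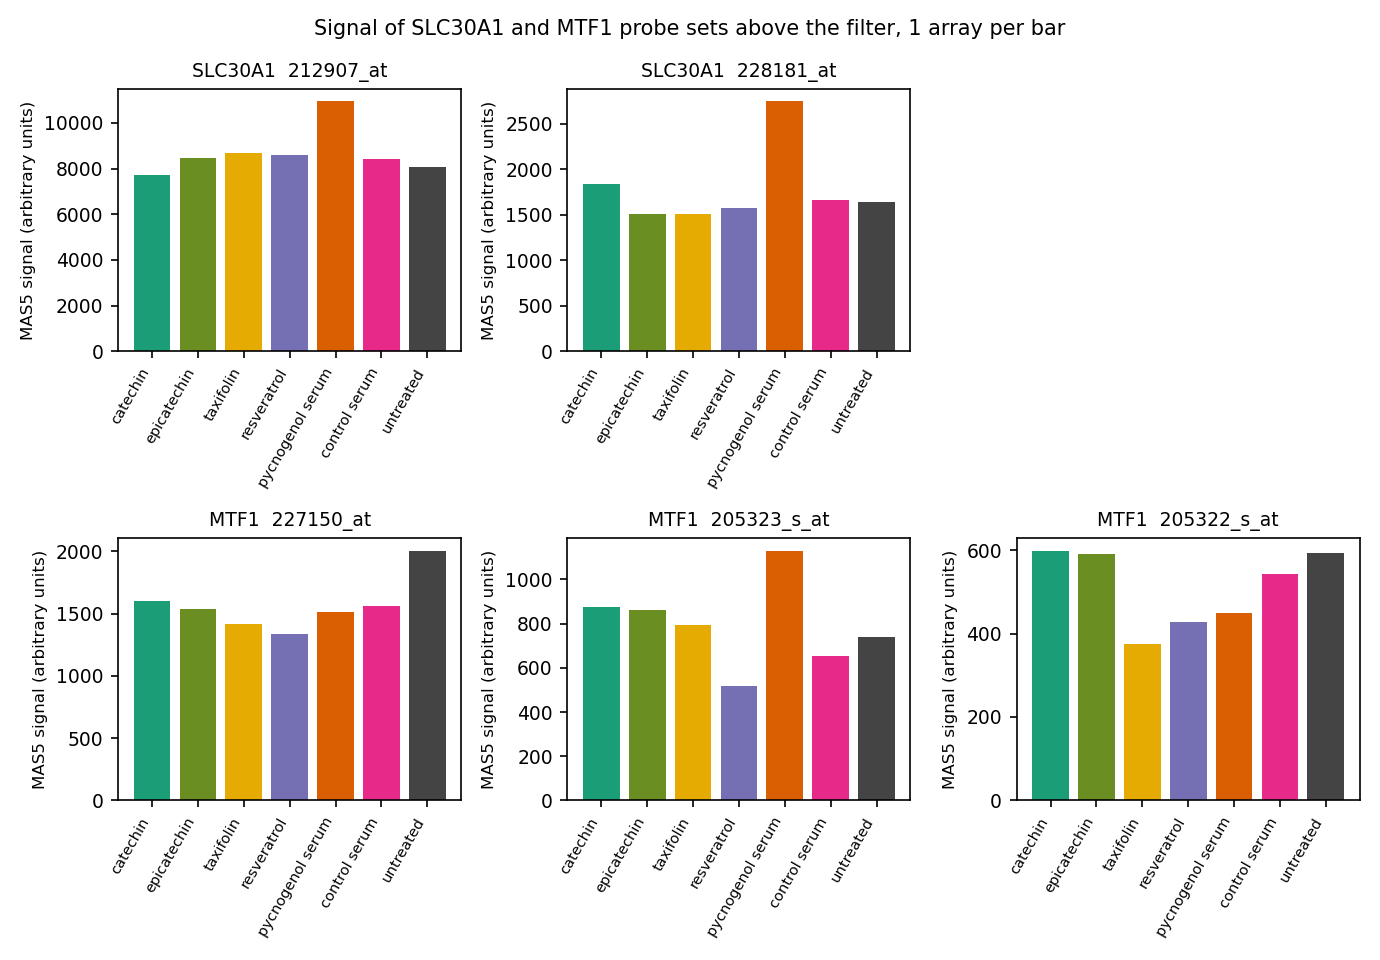
Deposited MAS5 signal (y axis, from 0) of the SLC30A1 (upper row) and MTF1 (lower row) probe sets above the filter, with 1 bar per array. SLC30A1 is highest with pycnogenol serum on both probe sets, at 10937 and 2745. MTF1 is highest untreated on 227150_at, at 2005, with pycnogenol serum on 205323_s_at, at 1130, and with catechin on 205322_s_at, at 598.

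Across the 8 comparisons, 0 of the 14 member probe sets above the filter differed by 2-fold or more. Over all probe sets above the filter that share was 2.90% for catechin, 3.21% for epicatechin, 3.02% for taxifolin and 4.0% for resveratrol, each against the untreated array. It was 3.68% for pycnogenol serum against control serum, 5.32% for pycnogenol serum and 4.67% for control serum against untreated, and 3.38% for epicatechin against taxifolin. These shares come mostly from dim probe sets. In the brightest 25%, with mean signals of 2680 or more, where 10 of the 14 lie, they ran from 0.0586% to 0.967%, so the absence of 2-fold differences was near what bright probe sets in general showed.

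The 14 probe sets gave 112 differences over the 8 comparisons, and 5 lay outside the central 95% of probe sets of like brightness, where 5% lie by construction. They were MT1X on 204326_x_at at 0.37 and MT1G at 0.49 with taxifolin against untreated, MT1H at -0.49 and SLC30A1 on 228181_at at 0.73 with pycnogenol serum against control serum, and that SLC30A1 probe set at 0.74 with pycnogenol serum against untreated. No difference with catechin, epicatechin, resveratrol or control serum against untreated lay outside.

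**Figure D4:**
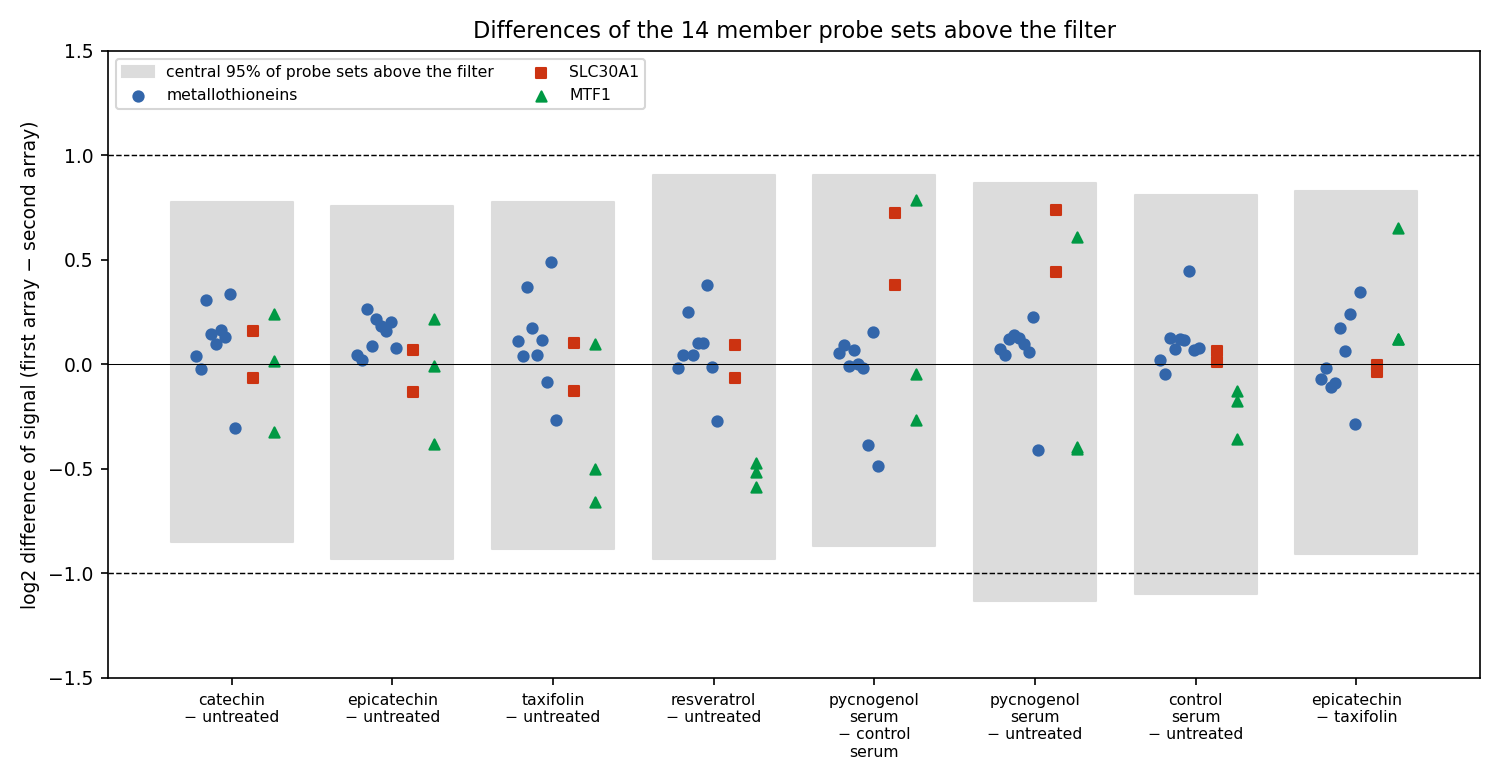
Difference of log2 signal (y axis, first array minus second) for the 14 member probe sets above the filter in 8 comparisons of single arrays (x axis). Grey boxes span the central 95% of all 27307 probe sets above the filter and dashed lines mark 2-fold. All points lie within 2-fold, and the SLC30A1 squares lie at 0.38 and 0.73 for pycnogenol serum against control serum.

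Metallothionein medians with the compounds lay close to the untreated array, and their size varied with the scaling. Read from 1 probe set per gene, the 6 metallothionein genes above the filter had a median difference of 0.092 with catechin, 0.083 with epicatechin, 0.11 with taxifolin and 0.015 with resveratrol. The medians over all 12003 genes above the filter were 0.030 to 0.033 in these 4 comparisons. Over the brightest 10% of probe sets above the filter, with mean signals of 7384 or more, they were 0.019 to 0.048. Over the 9 settings run, the metallothionein median was 0.034 to 0.16 with catechin, 0.0082 to 0.16 with epicatechin and 0.045 to 0.17 with taxifolin. With resveratrol it changed sign, at -0.011 under quantile normalization, -0.022 under pairwise loess and -0.077 with arrays centred on their medians. The median of all probe sets above the filter with resveratrol was 0.012, 0.00066 and -0.080 in that order. The sole pair of compounds at one dose and time was epicatechin and taxifolin, where taxifolin carries a carbonyl group that epicatechin lacks. Epicatechin minus taxifolin gave a metallothionein median of -0.043, which was 0.019 under quantile normalization, with MT1H at 0.35 and MT1G at -0.29 as its extremes. It gave -0.037 for SLC30A1 and 0.12 for MTF1 on their brightest probe sets.

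Catechin and epicatechin, which are stereoisomers, were given at different doses and are set side by side only. MT1H read 29176 with catechin at 11.25 ng/ml and 38071 with epicatechin at 6.25 ng/ml, and MT1G 15766 and 14369 in that order. SLC30A1 read 7705 with catechin and 8442 with epicatechin, and MTF1 1604 and 1540, on their brighter probe sets. None of the pairs reached 2-fold.

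With pycnogenol serum against control serum the metallothionein median was 0.061, against -0.00091 under quantile normalization and 0.0076 with centring, with a range from -0.49 for MT1H to 0.16 for MT1G, and 5 of 9 probe sets were higher. Pycnogenol serum and control serum against untreated gave medians of 0.085 and 0.070, with 8 of 9 probe sets higher in both. The share of all probe sets that were higher was not counted. The medians over all genes above the filter were 0.0083 and 0.00055, but over the brightest 10% of probe sets they were 0.067 and 0.039. Under pairwise loess the metallothionein medians were 0.0012 and 0.012. MT2A differed by 0.054 between pycnogenol serum and control serum.

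For 0 of the 14 member probe sets did both serum arrays lie outside the range of the 5 arrays without test serum, against the 23.6% of all probe sets given above. The median of all probe sets lay at -0.11 (log2) with pycnogenol serum and -0.17 with control serum relative to the untreated array. Counted as genes, both serum arrays lay outside for 0 of the 8 members as deposited and for 4 with arrays centred on these medians. That count thus depends on the scaling. Centring shifts all probe sets of an array alike, and the share of all probe sets lying outside was not computed after it. The 4 of 8 is therefore no result about the members in particular.

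The untreated array was the lowest of the 7 for 4 of the 9 metallothionein probe sets above the filter, namely 204326_x_at of MT1X, both of MT1E and 217165_x_at of MT1F. Over all probe sets above the filter, 13.4% had all 6 other arrays above the untreated one and 14.7% all 6 below. MTF1 on 227150_at was the 1 member probe set of the second kind. The 6 differences behind each count share the untreated array, and the 9 probe sets can read each other's transcripts, so they are not separate observations. Under quantile normalization, an alternative added to this count after the data were seen, 3 probe sets had all 6 arrays above.

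Among other genes of zinc transport, 19 passed the filter and 1, SLC39A5, reached 2-fold, where the share over all 12003 genes above the filter was 2.29% to 4.47% by comparison. The share of all genes at 1.5-fold in any of the 8 comparisons was not computed. A 1.5-fold difference in any of them was reached by 6 of the 19. Besides SLC39A5 these were SLC39A1, at 0.73 with catechin against untreated, SLC39A3, at -0.67 with pycnogenol serum against untreated, SLC39A13, at 0.62 with pycnogenol serum against control serum, TMEM163, at -0.60 with catechin against untreated, and SLC39A11, at 0.59 with epicatechin against taxifolin. Of a list of 10 exporters, the other SLC30 genes and TMEM163, 7 passed the filter and 0 of these differed by 2-fold in any of the 8 comparisons. SLC30A5 and SLC30A7, which carry zinc into the secretory pathway, read 4048 and 7267 with pycnogenol serum, 5083 and 5865 with control serum and 4347 and 5758 untreated. Of the SLC39 importers 12 of 14 passed, and SLC39A14 and SLC39A6, importers at the plasma membrane, stayed between 19048 and 23171 and between 14168 and 16208. The 1 importer at or past 2-fold was SLC39A5, at 1.44 with epicatechin, 1.63 with resveratrol, 1.14 with pycnogenol serum and 1.08 with control serum against an untreated signal of 89.8, and at 1.49 with epicatechin against taxifolin. All its signals were between 86.6 and 278, where the dimmest 25% of probe sets above the filter, with means up to 256, had 2-fold shares of 9.59% to 13.5%.

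Among the 14 other metallothionein genes and pseudogenes listed, 3 had a probe set of their own and 2 passed the filter. MT1HL1, an MT1H-like gene, read from 33167 with taxifolin to 39047 with pycnogenol serum on an _x_at probe set. MT3, known as a brain metallothionein, read 496 with resveratrol, 224 with pycnogenol serum, 42.0 with control serum and 144 untreated, and 215 to 264 with the other 3 compounds. It lay at 1.79 with resveratrol and -1.77 with control serum against untreated and at 2.41 with pycnogenol serum against control serum. The last 2 rest on the single control serum value, which lies under the filter of 110 and near the floor of 34.9. The untreated MT3 signal, the reference for resveratrol, is close to the filter.

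Genes with a pattern over the 7 arrays like that of SLC30A1 on 212907_at were sought among 4590 probe sets that name 1 gene, pass the filter and span at least 2-fold. The most alike were FIGN at a Pearson's r of 0.99, SLC35E4 at 0.98, PTGR3 and CTDP1 both at 0.96 and STRN at 0.94. All 5 were highest with pycnogenol serum, as SLC30A1 was: FIGN read 459 there and 225 with control serum, SLC35E4 1740 and 886, and PTGR3 2326 and 1291. That 1 array carries much of the likeness, since r over the other 6 arrays was 0.92, 0.82, 0.69, 0.78 and 0.43 in the same order. For the mean metallothionein profile, which spans 0.13 (log2), the 5 most alike were KIF26B, AFF2, ACTN3, GAS2 and SLC25A45 with r from 0.89 to 0.94, and all their signals were 220 or less.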

How the data were processed

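MAS5 signal intensity per probe set was deposited by the authors on a linear scale, with MAS5 named per the submitters' processing notes; its version was not given in the sources used here. Without the upper and lower 2% of its values, each array averaged 1000. Gene names came from the platform annotation, and symbols were updated through gene IDs to RefSeq (GRCh38.p14): 41091 probe sets named 1 gene, 1801 several and 11721 none, besides 62 control probe sets, which were left out. Signals were floored, put on the log2 scale and filtered at the median of all means. A gene was read from its probe set with the highest mean.

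A log2 difference has the array named first on top. A threshold of 2-fold served for counts. Python 3.11.15, numpy 2.4.6, pandas 2.3.3 and statsmodels 0.14.6 (loess span 0.3) were used, and the functions were tested on simulated data. Named were all members, list genes at or past 2-fold above the filter and the 5 genes most alike in pattern. The members, lists and tests were chosen with earlier results of these data known. The examples among list genes under 2-fold, SLC30A5, SLC30A7, SLC39A1, SLC39A3, SLC39A6, SLC39A11, SLC39A13, SLC39A14, TMEM163, MT1HL1, ATOX1 and SOD1, were picked after their values were seen. Alternatives were other normalizations, floors, filters, thresholds, readings of probe sets and references. Precision is limited by the number of arrays.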

Additional observations from a re-analysis of the deposited data

How the results depend on the processing

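No paired analysis was possible because each group held 1 array, and no array could be left out of a group. Member genes, each read from 1 probe set, at or past 2-fold numbered 0 in all 8 comparisons under every alternative run, with the exception of 1 gene (MT1M, under the filter) for pycnogenol serum against control serum without the signal filter. At 1.5-fold the gene count was also 0. MTF1 on 227150_at fell just short of it, at 1.4995-fold lower with resveratrol than untreated, and lay at -0.68 (log2) with arrays centred. On further member probe sets 6 differences passed 1.5-fold. They were SLC30A1 on 228181_at and MTF1 on 205323_s_at with pycnogenol serum against both controls, and MTF1 on 205322_s_at with taxifolin against untreated and epicatechin against taxifolin. No share over all probe sets was computed at 1.5-fold. When arrays were centred, the metallothionein median was -0.077 with resveratrol, 0.20 with pycnogenol serum and 0.24 with control serum against untreated. The median of all probe sets above the filter was then -0.080, 0.088 and 0.13 in that order. The metallothionein median was 0.0012 with pycnogenol serum under pairwise loess. It was -0.017 with control serum against the mean of the other arrays without test serum. Leaving out _x_at and _s_at probe sets left no metallothionein probe set above the filter. Both serum arrays lay outside the range of the other 5 for 0 of 8 member genes, 1 under quantile normalization and 4 with centring. Under these alternative scalings the share of all probe sets lying outside was not computed.

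The zinc and copper lists, with the other metallothioneins such as MT3, held 29 genes above the filter. Those at or past 2-fold against untreated numbered 1 with catechin, 2 with epicatechin and taxifolin and 3 with resveratrol. They numbered 2 with pycnogenol serum and 3 with control serum, 1 with pycnogenol serum against control serum and 1 with epicatechin against taxifolin. The share over all genes above the filter was 2.29% to 4.47% by comparison. All 8 were 0 with the filter at the 75th percentile, a signal of 784, where the share of all probe sets was 0.12% to 1.57%. Catechin gave 2 under quantile normalization, centring, loess, no filter or without _x_at and _s_at probe sets, and 0 with probe sets naming several genes also read or the mean of other arrays as reference. Epicatechin and taxifolin gave 1 when a gene's probe sets were averaged or those naming several genes were also read, taxifolin 1 without _x_at and _s_at probe sets, and epicatechin 0 against the mean of other arrays. Pycnogenol serum gave 1 with the higher floor, averaged probe sets or those naming several genes, and 0 against the mean of other arrays. Control serum gave 1 with the higher floor or against that mean, epicatechin against taxifolin 0 with averaged probe sets, and resveratrol 5 without the filter. Of 283 alternative values for member differences of 0.25 or more, 2 changed sign. The causes were not tested.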

Other observations

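Genes of copper handling, whose ions metallothioneins also bind, were measured beside the zinc genes, and all 8 listed passed the filter. The cytosolic copper chaperone ATOX1 read 16069 to 18015 and the copper and zinc enzyme SOD1 23896 to 31678. COX17, which delivers copper to mitochondria, read 145 to 172 on 6 arrays and 69.0 untreated, and so lay at 1.07 to 1.32 above it in all 6 comparisons, which share that 1 untreated value. COX17 was the only copper or zinc list gene above the filter at or past 2-fold with catechin. When probe sets naming several genes were also read, none was. ATP7A, a copper-transporting ATPase, read 165 with taxifolin and 370 untreated, a difference of -1.16, while its second probe set read 215 and 219, a difference of -0.024.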
